A study of Rattus norvegicus with 3 samples.

Results

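The satellite cell and myogenic differentiation factors are 9 genes that mark muscle stem cells or act as these cells turn into muscle fibres: Pax7, Cdh15, Myf5, Myod1, Myog, Myf6, Mymk, Myl4 and Actc1. They were chosen by symbol with earlier results of these data known, and the brightest probe set of each symbol was read. A share of all genes set beside a count of members below is therefore a scale and not a test. Of the 9, 7 had a probe set with a single gene in the platform annotation, out of 14506 genes with one. Pax7 and Myl4 were not analysed here. Each of the 7 had 1 probe set, and all 7 lay above the dim level of 5.34 log2 units, the 25th percentile of all genes, which 10879 genes passed.

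RNA came from the tibialis anterior, a fast muscle of the lower leg, of male Wistar rats aged 11 weeks. There were 3 groups with 1 array each, and each array held equal amounts of RNA from 6 rats. One group had been electroporated with 150 µg of pcDNA3.1-CMV-Plin5 (OXPAT), one with pENTR-CMV-Plin2 (ADRP), and the control group with the pcDNA3.1-empty vector. Perilipins 5 and 2 are proteins that coat lipid droplets. All groups ate a diet with 45% of energy from fat for 3 weeks, received the plasmid after 2 weeks of it and were killed 8 days after electroporation. Electroporation itself was therefore shared by all 3 groups, and muscle without it was not analysed here. The CMV promoter is not specific to muscle fibres, and the Plin2 plasmid differs from the other plasmids in backbone as well as insert. With 1 pooled array per group there was no replicate spread, no test and no p-value. A difference below is the log2 value of one array minus that of the other, and 1.5-fold is used as a mark of size.

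In adult muscle, satellite cells lie quiet beside the fibre until injury or strain activates them. They express the paired-box factor Pax7 and M-cadherin, the product of Cdh15. Activated cells become myoblasts under the basic helix-loop-helix factors Myf5 and MyoD (Myod1), myogenin (Myog) then drives their differentiation, and Myf6 (MRF4) is kept on in mature fibres. Myomaker, the membrane protein encoded by Mymk, is needed for myoblasts to fuse. New fibres for a time contain fetal contractile proteins, among them the atrial light chain of Myl4 and cardiac alpha-actin, the product of Actc1.

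The introduced genes had their highest levels on the arrays of their own plasmids. Plin5 stood at 8.30 on the Plin5 array, 6.79 on the Plin2 array and 7.52 on the empty vector array. Plin2 stood at 10.08, 10.71 and 9.99 on the same arrays in the same order. How much of these signals came from introduced and how much from endogenous RNA was not tested. Of 20 markers of mature fibres, 18 were measured, and all 18 lay above the dim level.

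The measured myogenic genes fell into 2 sets. Mymk, Myf5, Myog and Cdh15 were all at least 1.8-fold higher on the Plin2 array than on the empty vector array, where 8.84% of all genes past the dim level were at least 1.5-fold higher, while Myod1, Myf6 and Actc1 stayed within 1.1-fold of it. On the Plin5 array only Mymk differed from the empty vector by 1.5-fold or more, and it was lower, as were 1.42% of all genes past the dim level. Mymk had the widest range of the 7, with a 6.25-fold gap between the Plin5 and Plin2 arrays.

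**Figure D1:**
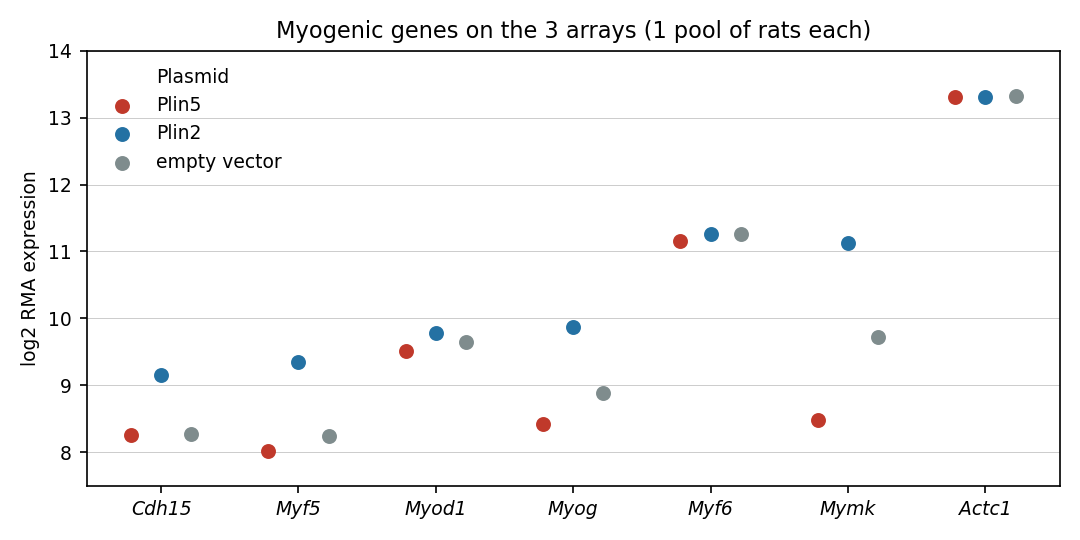
Deposited log2 expression (vertical axis) of the 7 measured genes on the Plin5 (red), Plin2 (blue) and empty vector (grey) arrays, with 1 point per array and no error bars because each group had 1 pooled array. Mymk, Myog, Myf5 and Cdh15 have their highest point on the Plin2 array, and the 3 points of Actc1 lie between 13.31 and 13.33. Heights of different genes are not comparable, since each comes from its own probes.

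The sequences just before the starts of 4 of these genes are shown because Myf5, Myog and Cdh15 were higher together on the Plin2 array and Myf6, the neighbour of Myf5, was not. They are the 250 bases before the RefSeq start in the rat assembly GRCr8, 5′ to 3′ on the gene's strand. RefSeq sequences were matched for 5 of the 7 measured genes. Capitals mark E-boxes (CANNTG, the core bound by basic helix-loop-helix factors), MEF2 boxes and the letters TATAAA, searched on both strands. A MEF2 box was counted only as CTA, 4 letters that are A or T, TA, and then A or G.
Myog, chr13:48297226-48297475, plus strand: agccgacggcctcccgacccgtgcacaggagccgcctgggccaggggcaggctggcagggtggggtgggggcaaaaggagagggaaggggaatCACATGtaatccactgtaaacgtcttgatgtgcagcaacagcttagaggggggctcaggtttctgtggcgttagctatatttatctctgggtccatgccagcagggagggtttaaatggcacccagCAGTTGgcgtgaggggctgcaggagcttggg
Cdh15, chr19:67814407-67814656, plus strand: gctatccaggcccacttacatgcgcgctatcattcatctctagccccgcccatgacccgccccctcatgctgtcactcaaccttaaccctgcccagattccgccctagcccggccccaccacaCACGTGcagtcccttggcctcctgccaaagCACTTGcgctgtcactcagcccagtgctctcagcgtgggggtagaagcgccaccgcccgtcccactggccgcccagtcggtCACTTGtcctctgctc
Myf5, chr7:44692639-44692888, minus strand: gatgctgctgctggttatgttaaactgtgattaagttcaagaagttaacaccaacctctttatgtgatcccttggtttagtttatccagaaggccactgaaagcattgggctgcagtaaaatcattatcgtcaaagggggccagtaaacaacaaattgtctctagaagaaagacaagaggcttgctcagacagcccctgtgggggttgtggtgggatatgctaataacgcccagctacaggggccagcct
Myf6, chr7:44701314-44701563, minus strand: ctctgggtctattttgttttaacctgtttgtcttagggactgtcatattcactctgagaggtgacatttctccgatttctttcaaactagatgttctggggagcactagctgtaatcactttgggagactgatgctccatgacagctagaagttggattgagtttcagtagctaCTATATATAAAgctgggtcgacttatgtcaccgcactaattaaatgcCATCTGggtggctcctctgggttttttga

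Myog held 2 E-boxes, Cdh15 held 3 and Myf6 held 1, and no match to the searched letters was found in the window of Myf5. E-boxes are common: 63.3% of 21842 windows of the same length before protein-coding genes held at least 1. The MEF2 box of Myf6, which overlaps its TATAAA, is rarer and was found in 1.58% of these windows, while TATAAA was found in 12.1%. The Myog window holds ctatatttat, which misses the searched MEF2 letters only in its last base. It was left in lower case, so the search does not show that Myog lacks a MEF2 site. The E-box form CAGCTG (11.9% of windows) and the CArG box (1.52%) were found in none of the 5 matched genes, Actc1 included. The CArG box was searched as CCWWWWWWGG, with W for A or T. The Actc1 window, not printed here, holds ccctatatgg, which misses these letters in 1 base. The search therefore does not show that Actc1 lacks a CArG site. The starts of Myf5 and Myf6 lie 8675 bp apart on chromosome 7, on the same strand.

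Among the satellite cell genes, Cdh15 stood at 8.26 on the Plin5 array, 9.15 on the Plin2 array and 8.27 on the empty vector array. The Plin5 and empty vector arrays were close together, and the Plin2 array stood apart from both. Against the empty vector the difference was -0.01 on the Plin5 array and 0.88 (1.84-fold) on the Plin2 array. In RNA of whole muscle, fewer cells of a type and less RNA per cell cannot be told apart. The sign of the small Plin5 difference depended on the scaling. It was 0.03 after median-centring (each array centred on the median of its genes) and 0.02 after quantile normalization.

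The 4 myogenic regulatory factors did not move alike. Myf5, which marks satellite cells and early myoblasts, stood at 8.02 on the Plin5 array, 9.35 on the Plin2 array and 8.25 on the empty vector array. Its difference from the empty vector was -0.23 on the Plin5 array and 1.11 (2.15-fold) on the Plin2 array. The Plin2 array was thus the high one for Myf5, as for Cdh15.

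Myog, the differentiation factor, stood at 8.42 on the Plin5 array, 9.88 on the Plin2 array and 8.89 on the empty vector array. It was the factor with the largest difference on the Plin5 array (-0.47, 1.38-fold lower), which stayed short of 1.5-fold, and it differed by 0.99 (1.99-fold higher) on the Plin2 array. The empty vector lay between the other arrays.

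Myod1 stood at 9.51 on the Plin5 array, 9.79 on the Plin2 array and 9.65 on the empty vector array. Its order was that of Myog, but its differences of -0.14 and 0.13 from the empty vector were small. On the Plin2 array the Myog difference exceeded that of Myod1 by 0.86 log2 units.

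Myf6, the factor of mature fibres, stood at 11.16 on the Plin5 array and at exactly the same value, 11.25, on the Plin2 and empty vector arrays. The Plin2 difference of Myf5, its neighbour on chromosome 7, exceeded that of Myf6 by 1.11 log2 units. Exactly equal values were common in the deposited table. They were found for 3263 of 10879 genes between the Plin2 and empty vector arrays and for 4368 between the Plin5 and empty vector arrays, so a difference of 0 may hide a small one.

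The fusion gene Mymk stood at 8.48 on the Plin5 array, 11.13 on the Plin2 array and 9.72 on the empty vector array. The empty vector lay well inside the range, with gaps on both sides that were wider than those of any other measured member. Against the empty vector Mymk differed by -1.24 (2.35-fold lower) on the Plin5 array and by 1.41 (2.65-fold higher) on the Plin2 array. Among all genes past the dim level, its Plin5 difference ranked 21 from the lowest and its Plin2 difference ranked 66 from the highest. Of 10879 genes, 127 (1.17%) were at least 1.5-fold lower on the Plin5 array and at least 1.5-fold higher on the Plin2 array than on the empty vector array, and Mymk was the only one of the 7 among them.

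Actc1, the actin of fetal muscle, stood at 13.31 on the Plin5 array, 13.31 on the Plin2 array and 13.33 on the empty vector array. Its values were equal to within 0.02 log2 units. The skeletal actin Acta1, a close paralog, stood at 14.04, 14.02 and 14.04 on the arrays in the same order. The smooth muscle actins Acta2 (12.33, 12.40 and 12.33) and Actg2 (7.73, 7.74 and 7.64) also stayed within 0.1 log2 units of the empty vector. Whether the Actc1 probes also detect Acta1 RNA was not tested, and array signals this bright can be compressed.

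**Figure D2:**
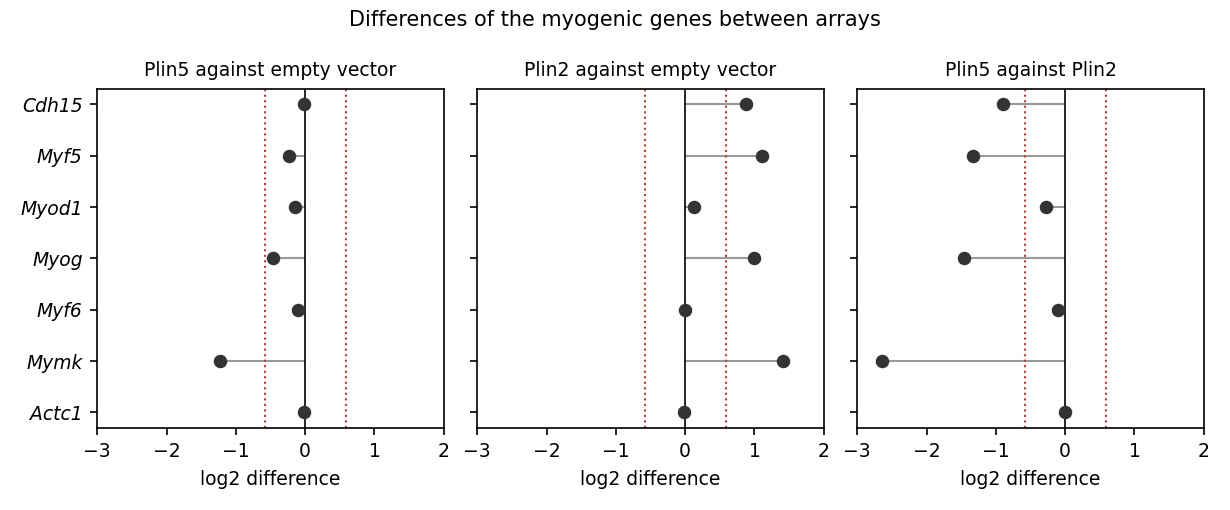
Log2 difference (horizontal axis) of each measured gene in the Plin5, Plin2 and direct comparisons (panels from left to right), with dotted red lines at 1.5-fold either way. Mymk lies beyond a line in all 3 panels, and Cdh15, Myf5 and Myog lie beyond one in the 2 panels that involve the Plin2 array.

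On the Plin5 array, 1 of the 7 was at least 1.5-fold lower than on the empty vector array, where the share of all genes was 1.42%, and 0 were at least that much higher, against 0.221% of all genes. All 7 were below the empty vector as deposited, with a median of -0.14 against 0.00 for all genes. Of the 10879 genes past the dim level, 2812 were above and 3699 below the empty vector. After median-centring, 5 of 7 were below it, and Cdh15 and Actc1 stood at 0.03 and 0.02. The lower values were therefore those of Mymk, Myog, Myf5 and, by smaller amounts, Myod1 and Myf6.

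On the Plin2 array, 4 of the 7 were at least 1.5-fold higher than on the empty vector array, where the share of all genes was 8.84%, and 0 were at least that much lower, against 5.8% of all genes. The median of the 7 was 0.88, against 0.00 for all genes. Both comparisons share the empty vector array, so their values are not independent of each other.

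Set directly against the Plin2 array, the Plin5 array was at least 1.5-fold lower for 4 of the 7 (share of all genes 11.3%) and at least that much higher for 0 (7.19%). Mymk differed by -2.64 (6.25-fold lower), which ranked 14 from the lowest among all genes past the dim level. Myog differed by -1.46 (2.75-fold), Myf5 by -1.34 (2.53-fold) and Cdh15 by -0.89 (1.86-fold). Centring shifted the median of all genes by -0.12 in this comparison, and relative to that shift the differences were -2.52 for Mymk, -1.33 for Myog, -1.21 for Myf5 and -0.77 for Cdh15. Myod1 stood at -0.28 (-0.15 after centring). Myf6 (-0.10) changed sign with the centring, at 0.03, and Actc1, equal on both arrays as deposited, took the value of the shift, 0.12. For Cdh15 nearly the whole difference lay between the Plin2 and empty vector arrays, whereas for Mymk the Plin5 and Plin2 arrays lay on opposite sides of the empty vector by similar amounts.

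**Figure D3:**
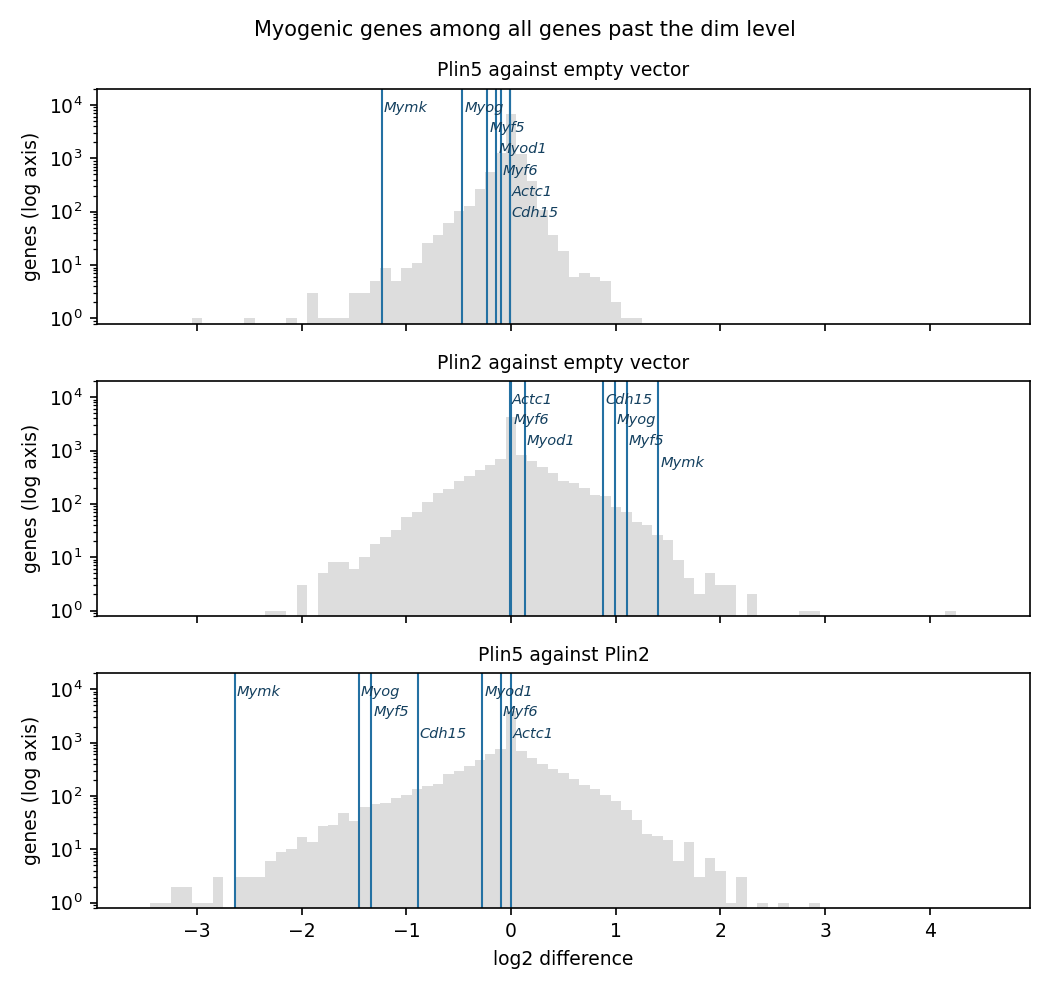
Number of genes (log axis) by log2 difference for the 10879 genes past the dim level in each comparison (grey bars, 0.1 log2 units wide), with blue lines at the 7 measured genes. Mymk lies in the outer tail in all 3 panels, while Myf6 and Actc1 lie near 0.

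The genes whose pair of differences from the empty vector was nearest to that of a member were found over the 3 arrays. Near Mymk, 5 genes lay within 0.25 log2 units, the nearest named ones being Clec4a2 (distance 0.13), Fcgr3a (0.18) and Klra17 (0.21). Large differences were rare, so a fixed distance holds few genes there and many near 0, whatever the gene. The value of Klra17 is uncertain because its gene family holds near-identical copies. Nearest to Myog were Htr2b, Col12a1 and Pip4k2a, with 207 genes within 0.25. Nearest to Myf5 were Mov10, Plekho1 and Fgr, with 163 genes within that distance, and nearest to Cdh15 were Adamts15, Gnai1 and Napsa, with 289. For Myod1, Myf6 and Actc1, 6145, 6502 and 6656 genes lay as near (first Igdcc4, Sec13 and Cyb5d2), so their patterns were those of most genes. With 3 arrays such likeness is easily reached.

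Other genes of satellite cells were less uniform. Of 24 listed, 23 were measured. On the Plin2 array 4 were at least 1.5-fold higher and 0 lower than on the empty vector array (median 0.11). The shares of all genes there were 8.84% and 5.8%. On the Plin5 array 0 were higher and 1 was lower by 1.5-fold or more (median 0.00), against 0.221% and 1.42% of all genes. After median-centring 0 were lower. The 1 was Ncam1, the neural cell adhesion molecule that marks satellite cells and denervated fibres, at 10.50 on the Plin5 array, 11.93 on the Plin2 array and 11.11 on the empty vector array. Vcam1, an adhesion molecule of satellite cells that endothelium also makes, differed by -0.07 on the Plin5 array and 0.95 on the Plin2 array. The chemokine receptor Cxcr4, which leukocytes share, differed by -0.32 and 0.74 in the same comparisons, and the receptor Notch2 by -0.29 and 0.53. Pax3, the paralog of Pax7, stood at 4.71 on all 3 arrays, under the dim level.

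Of 28 transcription and cell cycle exit genes of myogenesis, 22 were measured. On the Plin2 array 2 were at least 1.5-fold higher and 2 lower than on the empty vector array (median 0.00). The shares of all genes there were 8.84% and 5.8%. On the Plin5 array 0 passed in either direction, against 0.221% of all genes higher and 1.42% lower. Cdkn1a (p21), the cyclin-dependent kinase inhibitor induced when myoblasts leave the cell cycle and in many stressed cells, stood at 10.20 on the Plin5 array, 11.59 on the Plin2 array and 10.59 on the empty vector array. Id2, which binds the partners of the myogenic factors and blocks them, differed by -0.06 on the Plin5 array and 0.64 on the Plin2 array. Those lower on the Plin2 array were Klhl31 (-0.94), a Kelch protein of muscle, and Smarcd3 (-0.65), a chromatin remodelling subunit that works with MyoD.

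Of 23 other listed fusion genes, 16 were measured, and 2 were at least 1.5-fold higher on the Plin2 array (share of all genes 8.84%): Cdh2 (1.01), or N-cadherin, and Elmo2 (0.76), an adaptor of Rac activation. On the Plin5 array 0 of the 16 passed 1.5-fold, against 0.221% of all genes higher and 1.42% lower. The lowest was Cdh2 at -0.28. Kirrel1, an adhesion molecule related to fusion proteins of the fly, differed by -0.14 and 0.45, and Dysf, the membrane repair protein dysferlin, by -0.01 and -0.21 on the Plin5 and Plin2 arrays. Mymx, the partner of Mymk in fusion, was not analysed here. Cdh2 is also a paralog of Cdh15.

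Of 16 other developmental sarcomere and regeneration genes, 12 were measured. On the Plin2 array 5 were at least 1.5-fold higher and 1 lower (median 0.31), against 8.84% and 5.8% of all genes. On the Plin5 array 1 was higher and 1 lower by that amount (median 0.00), against 0.221% and 1.42% of all genes. Tnnt2, the cardiac troponin T that immature fibres also make, stood at 9.48 on the Plin5 array, 10.90 on the Plin2 array and 9.96 on the empty vector array. The embryonic myosin heavy chain Myh3, named after its values were seen, differed by -0.03 on the Plin5 array and 0.79 on the Plin2 array. Sln, the calcium pump regulator sarcolipin, differed by -0.82 and 0.74, and the intermediate filament gene Nes (nestin) by -0.33 and 0.74. Nrap, also named after its values were seen, was the 1 lower gene on the Plin2 array. It differed by 0.04 on the Plin5 array and -0.71 on the Plin2 array. Of the 12, 8 were above the empty vector on the Plin2 array and 3 were below it. Of the 10879 genes past the dim level, 4168 were above it there and 3448 below. Dlk1 went another way and was higher on both arrays, at 9.96 on the Plin5 array, 9.80 on the Plin2 array and 9.11 on the empty vector array. Of 6 cardiac markers 4 had equal values on all 3 arrays, Nppa and Nppb among them. These values lay between 5.37 and 5.83, close to the dim level of 5.34. The others were Tnnt2, given above, and Myh6, which differed by 0.21 on the Plin5 array and -0.39 on the Plin2 array. The light chain Myl1, a paralog of Myl4, differed by 0.04 on the Plin5 array and -0.10 on the Plin2 array, and the slow light chain Myl3 by 0.24 and -1.35.

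For the acetylcholine receptor and denervated fibres, 9 genes were measured. Of these, 8 were above the empty vector on the Plin2 array and 7 were below it on the Plin5 array. Of the 10879 genes past the dim level, 4168 were above it on the Plin2 array and 3699 below it on the Plin5 array. Of the 9, 3 were at least 1.5-fold higher on the Plin2 array (median 0.39), where the share of all genes was 8.84%. On the Plin5 array 1 was at least 1.5-fold lower (median -0.43), against 1.42% of all genes. After median-centring the 2 counts were 2 and 0. Chrna1, the alpha subunit, differed by -0.52 on the Plin5 array and 1.12 on the Plin2 array, and Chrng, the subunit of the fetal receptor, by -0.55 and 0.55. The receptor kinase Musk differed by -0.43 and 0.60, and Gadd45a, a stress gene induced by denervation, by -0.59 and 0.37.

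**Figure D4:**
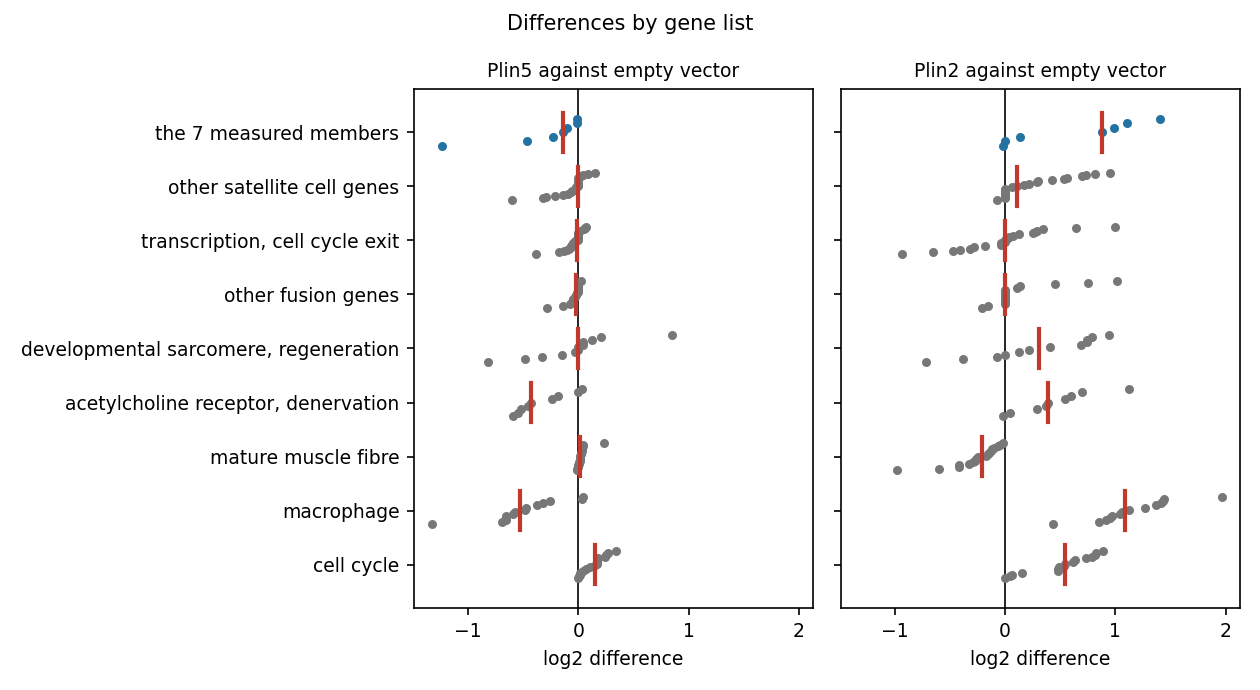
Log2 difference (horizontal axis) of each measured gene, grouped by list, on the Plin5 array (left) and the Plin2 array (right) relative to the empty vector array, with red bars at the list medians. The 7 measured members (blue) have medians of -0.14 and 0.88, macrophage markers -0.53 and 1.09, and cell cycle genes 0.15 and 0.54.

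Most macrophage markers differed in the directions of Mymk on both arrays, while T and natural killer cell markers did so clearly only on the Plin2 array. Macrophage markers were at least 1.5-fold higher on the Plin2 array for 13 of 14 genes, against 8.84% of all genes. On the Plin5 array 6 of 14 were at least 1.5-fold lower (5 after median-centring), against 1.42% of all genes. All 14 macrophage markers lay above the dim level. Their summed linear signal was 12115 on the Plin5 array, 33393 on the Plin2 array and 15405 on the empty vector array. Markers of T and natural killer cells were at least 1.5-fold higher on the Plin2 array for 11 of 14 genes, against 8.84% of all genes. On the Plin5 array 2 were higher and 1 lower by that amount, against 0.221% and 1.42% of all genes. The part of these cells in the myogenic differences was not tested.

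Cell cycle genes differed from the myogenic factors in direction on the Plin5 array. Of 16 measured, 15 were above the empty vector there (median 0.15), as were 2812 of the 10879 genes past the dim level. Of the 16, 0 were higher by 1.5-fold, against 0.221% of all genes. On the Plin2 array 7 were at least 1.5-fold higher (median 0.54), or 5 after median-centring, against 8.84% of all genes as deposited. Rrm2, a subunit of ribonucleotide reductase, differed by 0.02 on the Plin5 array and 0.89 on the Plin2 array, and Top2a, a topoisomerase of dividing cells, by 0.11 and 0.82. Such genes are expressed by any dividing cell, and which cells divided was not tested.

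Mature fibre markers went against the myogenic genes on the Plin2 array, where 18 of 18 were below the empty vector (median -0.21). Of the 10879 genes past the dim level, 3448 were below it. Of the 18 markers, 2 were lower by at least 1.5-fold, where the share of all genes was 5.8%. After quantile normalization 16 of 18 were below the empty vector, 1 by at least 1.5-fold. The 2 as deposited were Myh2, the myosin heavy chain of type IIa fibres (-0.98), and Pvalb, the calcium buffer parvalbumin (-0.60). On the Plin5 array 0 of 18 differed by 1.5-fold (median 0.02), against 0.221% of all genes higher and 1.42% lower. Tendon markers were at least 1.5-fold lower on the Plin5 array for 4 of 6 genes (median -1.10), against 1.42% of all genes. Chad was the lowest of them (-1.94), and the median of the tendon markers on the Plin2 array was -0.32. Fibroblast markers had medians of -0.14 and 0.18, smooth muscle and pericyte markers 0.03 and -0.01, endothelial markers 0.03 and 0.03, and Schwann cell markers 0.02 and -0.02 on the Plin5 and Plin2 arrays. Of these last, the Plin2 medians of the endothelial and of the smooth muscle markers changed sign with the scaling, at -0.05 after median-centring and 0.02 after quantile normalization.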

How the data were processed

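The deposited values were taken as log2 RMA expression per probe set. RMA, which corrects background, quantile-normalizes and summarises probes, is named without a version in the submitters' processing notes. The log base was taken from the values. For the authors' chip description and annotation, nothing was given in the sources used here. Per the labels' protocols, 100 ng of RNA from a pool of 6 rats went into each labelling.

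The table holds 29214 probe sets. The platform annotation pairs 15310 of them with 1 symbol, and these were used. It gives several symbols for 323 and does not list 13581. Symbols were updated through the RefSeq table of GRCr8. The brightest probe set per gene was kept. All members were read, and background counts used the genes past the 25th percentile of the mean level (5.34). Array medians over all probe sets were 6.37 (Plin5), 6.40 (Plin2) and 6.38 (empty vector). Median-centring did not use these. It subtracted the median over all genes with a probe set, which was 7.28 (Plin5), 7.41 (Plin2) and 7.32 (empty vector). The gene medians lay further apart than the probe set medians, so signs of small differences that changed with median-centring depend on that choice. The number of arrays, 1 per group, limits the precision of every value.

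Differences of log2 values were counted at 1.5-fold. All 9 members were named, with up to 4 leading genes of each other list and the 3 nearest genes of each member. Myh3 and Nrap were named in addition. The members and lists were chosen with earlier results of these data known. The counting was tested on simulated data with little noise and planted shifts well past 1.5-fold. That checks the code and says nothing on the reliability of the calls in these arrays. Alternatives covered scaling, fold threshold, dim filter and probe set choice. Computation used matplotlib 3.10.9, pandas 2.3.3, numpy 2.4.6 and Python 3.11.15.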

Additional observations from a re-analysis of the deposited data

How the results depend on the processing

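The member counts and medians were recomputed under the alternatives. Of these values, 54 stayed within 1.5 times the count or 0.1 log2 units of the median, and 3 did not. Averaging of probe sets and the dim filter could change nothing here. Each member had 1 probe set, and all 7 lay above the dim level. Each of these settings gave 9 of the 54 values. With a 1.2-fold threshold, 2 members (Mymk and Myog) were lower on the Plin5 array than on the empty vector array. With a 2-fold threshold, 2 members (Mymk and Myf5) were higher on the Plin2 array. Centring each array on its median gene gave a median member difference of -0.77 for Plin5 against Plin2. None of the 7 members crossed 1.5-fold in any comparison under median-centring or quantile normalization. The same held for centring on the genes past the dim level, a setting chosen after seeing the data. Genes of the other lists that the report names and that fell under 1.5-fold against the empty vector after median-centring were Ncam1 (-0.57) and Gadd45a (-0.55) on the Plin5 array, and Id2 (0.56) and Musk (0.51) on the Plin2 array. After quantile normalization they were Gadd45a (-0.58) on the Plin5 array, and Musk (0.58) and Pvalb (-0.53) on the Plin2 array. The signs of Actc1 in all comparisons, of Myf6 where the Plin2 array was involved and of Cdh15 on the Plin5 array were not stable. No paired analysis was possible because each group had 1 array. The lack of replicates limits all values, and 38.7% of probe sets were at one value throughout the 3 arrays.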
